A study of Mus musculus with 22 samples.

Results

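The genes described here encode the ionotropic and metabotropic glutamate receptors of the mouse and the auxiliary subunits that travel with them. They are 37 genes of the 39056 in the count table, named by symbol, and 35 of them passed the filter on low counts. By role they are the 4 AMPA receptor subunits, 5 kainate receptor subunits, 7 NMDA receptor subunits, 1 delta receptor subunit, 7 metabotropic receptors, 6 transmembrane AMPA receptor regulatory proteins (TARPs) and 7 cornichon, NETO or Shisa subunits. The 2 that did not pass were Grin3b, an NMDA receptor subunit, with 63 counts over all 22 libraries, and Grm6, a metabotropic receptor best known from the retina, with 6.

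The libraries came from the prefrontal cortex (PFC) of male mice of 8 to 12 weeks on a C57BL/6J background, all of which carried a CaMKIIα-tTA transgene and a tetO-EGFP/Rpl10a transgene. The tagged ribosomal protein is made in cells in which the CaMKIIα promoter drives the transactivator, and translating ribosome affinity purification (TRAP) with an antibody to EGFP collects the RNA bound to those ribosomes. Control mice (n = 3) received normal saline i.p., 2 injections a day for 4 days; EtOH mice (n = 4) received ethanol to 2 g/kg per day on the same schedule. EtOH+ABT-888 mice (n = 4) received the same ethanol and, on day 4, 25 mg/kg of ABT-888, an inhibitor of poly(ADP-ribose) polymerases, and all mice were killed 2 h after the last injection. Each of the 11 mice gave 1 TRAP library and 1 total-RNA library from the same homogenate, so the 22 libraries fall into 6 groups.

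Glutamate carries most of the fast excitatory transmission in the cortex. AMPA receptors open first and pass most of the synaptic current, NMDA receptors add a slower current that admits calcium and needs depolarization, and kainate receptors act on both sides of the synapse. Metabotropic receptors are coupled to G proteins, and Grm2 and Grm3, which form group II of that family, lower cyclic AMP and damp glutamate release. The auxiliary subunits bind to the pore-forming subunits and set how many receptors reach the synapse and how quickly they close.

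The sequences just upstream of 4 genes are shown because those genes gave the ethanol differences that held up best in total-RNA, as described below. The stretches are the 250 bases before a RefSeq transcription start in GRCm38.p6, on the strand of the gene, 5′ to 3′. Capitals mark the letters of a GC box (GGGCGG), a cyclic AMP response element half-site (TGACG) or a glucocorticoid receptor half-site (TGTTCT) on either strand.
Gria4, chr9:4796235-4796484, minus strand: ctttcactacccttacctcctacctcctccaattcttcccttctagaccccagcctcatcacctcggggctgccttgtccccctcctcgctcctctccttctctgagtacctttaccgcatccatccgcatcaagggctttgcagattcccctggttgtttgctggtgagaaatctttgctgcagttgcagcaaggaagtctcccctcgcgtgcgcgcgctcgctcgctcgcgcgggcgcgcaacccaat
Grm2, chr9:106656110-106656359, minus strand: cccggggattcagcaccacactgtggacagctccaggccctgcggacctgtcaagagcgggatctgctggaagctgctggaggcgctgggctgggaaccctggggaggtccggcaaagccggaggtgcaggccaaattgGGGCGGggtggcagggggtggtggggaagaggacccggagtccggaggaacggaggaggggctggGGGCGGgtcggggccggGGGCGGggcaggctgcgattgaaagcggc
Grm3, chr5:9725353-9725602, minus strand: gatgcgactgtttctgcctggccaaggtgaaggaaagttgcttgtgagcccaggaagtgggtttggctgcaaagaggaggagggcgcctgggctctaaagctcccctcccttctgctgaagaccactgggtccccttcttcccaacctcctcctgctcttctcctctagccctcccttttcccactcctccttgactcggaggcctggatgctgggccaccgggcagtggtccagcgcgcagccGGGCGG
Cacng5, chr11:107915056-107915305, minus strand: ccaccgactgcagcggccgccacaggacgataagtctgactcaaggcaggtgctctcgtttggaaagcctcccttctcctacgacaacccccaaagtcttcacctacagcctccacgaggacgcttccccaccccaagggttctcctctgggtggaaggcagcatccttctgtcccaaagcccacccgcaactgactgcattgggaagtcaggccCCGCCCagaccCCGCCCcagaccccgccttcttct
Of these stretches, those of Grm2, Grm3 and Cacng5 held GC boxes (3, 1 and 2 matches) and that of Gria4 held none of the 3 motifs. RefSeq gives a second start for Cacng5, and the 250 bases before that one (chr11:107911363-107911612, minus strand, not shown) held none of the 3 either. Over 32841 RefSeq promoters of the same length, 32.7% held a GC box, 17.8% the cyclic AMP response element half-site and 16.1% the glucocorticoid receptor half-site. Promoters were given for 24 of the 37 genes, as 29 sequences, of which 15 held a GC box, 2 the cyclic AMP response element half-site and 3 the glucocorticoid receptor half-site. The window of Cacng3, which belongs with these genes by its values, overlapped an annotated exon and is not shown. It held none of the 3 motifs. Of 12 promoters of genes called in a treatment comparison, 6 held a GC box, 1 the cyclic AMP response element half-site and 1 the glucocorticoid receptor half-site.

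The total-RNA libraries held between 22132534 and 32421392 counts and the TRAP libraries between 6570957 and 22002618. Levels are given as CPM, read counts scaled to the library total, after TMM normalization over the 22 libraries, and as CPM per kilobase of merged exon (RPKM) wherever genes are compared with each other. The labelled cell type was checked against marker genes. In TRAP, the summed level of 8 astrocyte markers was 82.8 to 366 CPM, against 1507 to 1936 in total-RNA, and the oligodendrocyte, microglia and endothelial lists were lower in the same way in every treatment, with at least 7 of 8 markers of each list called. Of 6 excitatory cortical neuron markers, 5 were also lower in TRAP in every treatment, with Slc17a7 at a log2 fold change of -1.13 and Neurod6 at -2.23 in Control, while Camk2a itself stood at -0.17 and was not called. All 8 markers of striatal projection neurons were higher in TRAP in every treatment, and their summed level was 9573 to 13402 CPM there against 941 to 1979 in total-RNA. The list of 8 inhibitory interneuron markers was mixed, with 3 higher and 3 or 4 lower, and its summed level was 1677 to 2324 CPM in TRAP and 773 to 1071 in total-RNA. The microglia markers Cx3cr1 and Aif1 and the endothelial markers Tek and Kdr were at 0 in at least 1 TRAP library, and every other marker was above 0 in every library. The TRAP libraries therefore went against the label of PFC pyramidal neurons in these markers, and are called TRAP throughout. In bulk RNA, fewer cells of a type and less RNA per cell cannot be told apart.

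In Control total-RNA the 35 genes ranged over 2 orders of magnitude per length. The highest mean levels were those of Grin2b, at 74.4 ± 3.81 RPKM (SD, n = 3), and Gria1, at 74.2 ± 2.82, which differed by less than their SDs. Grm3 followed at 70.9 ± 4.43, then the obligatory NMDA receptor subunit Grin1 at 56.6 ± 5.55 and Gria2, the subunit that keeps AMPA receptors closed to calcium, at 54.2 ± 2.33. The lowest were Grin2d, at 0.696 ± 0.126, and the kainate receptor subunit Grik1, at 2.27 ± 0.226. In Control TRAP the order began with Cnih2, a cornichon that slows AMPA receptor closing, at 141 ± 17.3 RPKM, followed by Gria1 at 114 ± 4.36 and Grin1 at 92.0 ± 4.87. Merged exons count every annotated 3′ end, so genes with long annotated ends such as Grin2b and Gria2 can have understated RPKM.

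**Figure D1:**
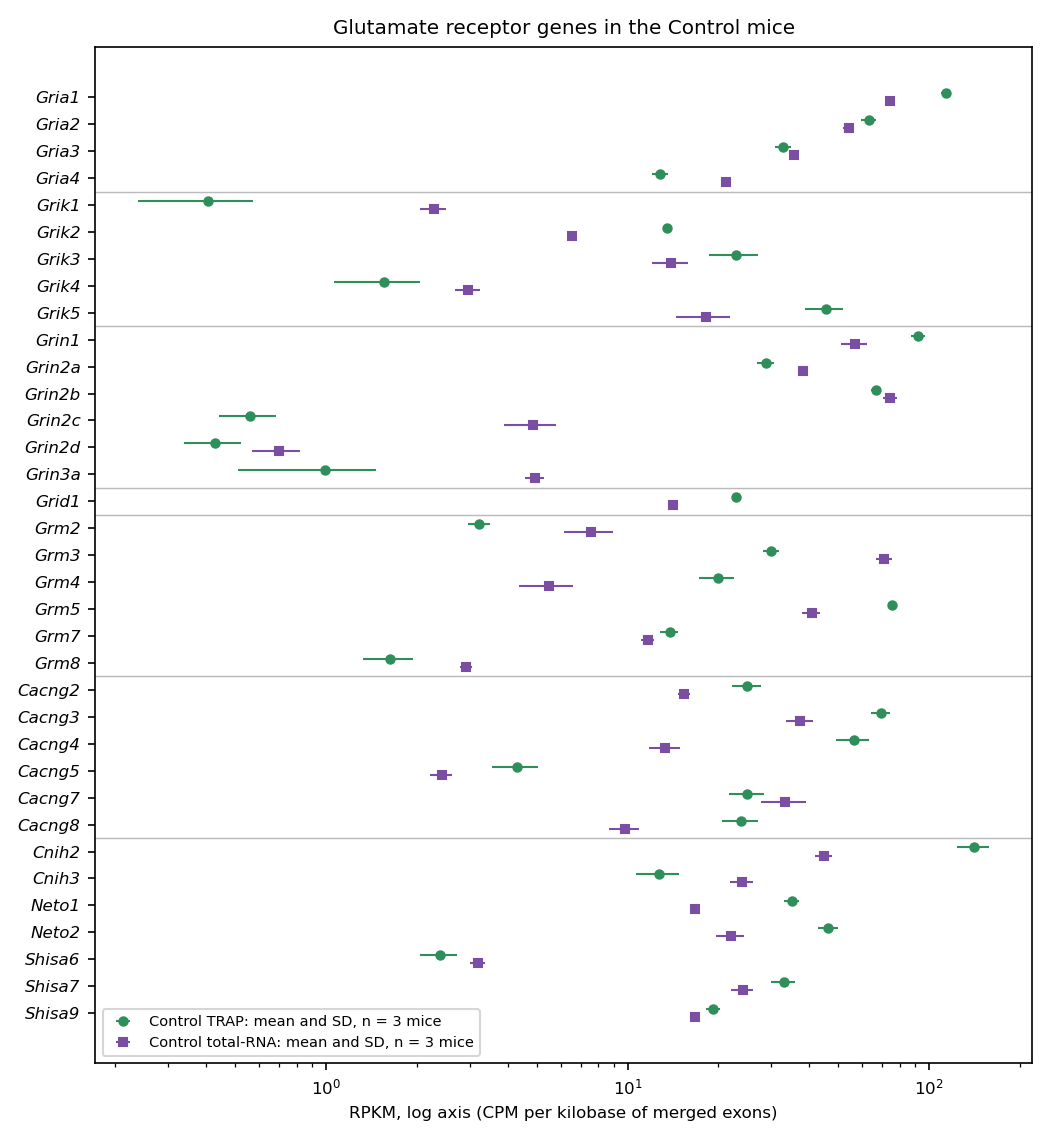
Mean RPKM with SD (log axis) of the 35 genes in the 3 Control TRAP libraries (green circles) and the 3 Control total-RNA libraries (purple squares), in order of role with grey lines between roles. Grin2c, Grin3a and Grik1 lie farthest to the left in TRAP relative to total-RNA, and Cacng4, Grm4 and Cnih2 farthest to the right.

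Shares within a family, from the same per-length values, describe the RNA of each receptor class and not the receptors themselves. They depend on the annotated exon lengths, 6043 bases for Gria1 and 15548 for Gria2. In CPM, Gria2 was the higher of the 2 in Control total-RNA, at a mean of 843 against 448. Of the summed AMPA receptor RPKM in Control total-RNA, Gria1 took 40.0% ± 0.948, Gria2 29.2% ± 0.796, Gria3 19.3% ± 0.149 and Gria4 11.4% ± 0.398 (SD, n = 3). In Control TRAP the share of Gria1 was 51.1% ± 1.64 and that of Gria4 5.76% ± 0.393, and the 3 libraries of each pool did not overlap for either. Among the Grin2 subunits, which set the kinetics of NMDA receptors, Grin2b took 62.9% ± 1.65 in total-RNA and 69.2% ± 0.330 in TRAP, and Grin2c 4.10% ± 0.745 and 0.585% ± 0.151. Within the TARPs, Cacng7 made up 29.7% ± 2.86 in total-RNA and 12.2% ± 0.709 in TRAP, while Cacng4 made up 12% ± 1.67 and 27.6% ± 1.44.

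The comparison of TRAP with total-RNA asks which transcripts were over-represented on the tagged ribosomes relative to the whole tissue. In Control, 30 of the 35 tested genes passed (edgeR quasi-likelihood test, Benjamini-Hochberg adjusted p under 0.05 over 14072 genes), 17 of them higher in TRAP and 13 lower. Over all genes tested, 59.9% passed, 29.5% higher and 30.4% lower. In EtOH mice 29 passed, 16 higher and 13 lower, against 50.7% of all genes, 24.3% higher and 26.5% lower. In EtOH+ABT-888 mice 30 passed, 18 higher and 12 lower, against 41.0% of all genes, 19.5% higher and 21.5% lower. The median log2 fold change of the 35 genes was 0.22, 0.47 and 0.63 in Control, EtOH and EtOH+ABT-888, and that of all genes 0.015, 0.030 and 0.050. In every treatment 15 genes were called higher in TRAP and 12 lower, against 16.8% and 19.2% of all genes. Within single mice, 19 genes were higher in TRAP in 11 of 11 mice and 13 were lower in 11 of 11, against 24.5% and 26.7% of all genes.

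**Figure D2:**
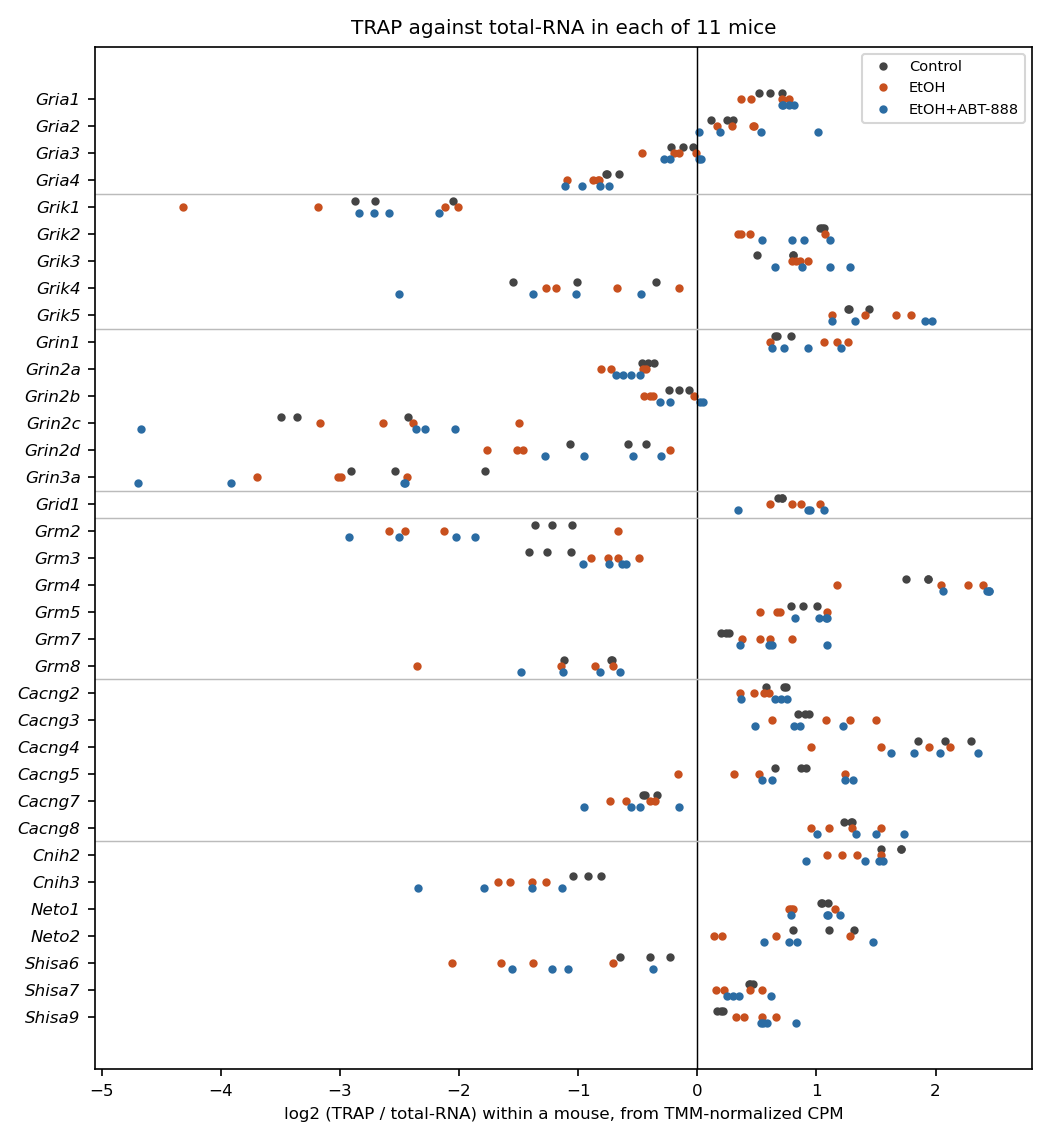
Log2 ratio of TRAP to total-RNA for each of the 35 genes in each of the 11 mice (1 point per mouse), coloured by treatment and ordered by role, with a line at 0. In 32 genes all points lie on one side of 0, and the spread between mice is widest for Grik1, Grik4, Grin2c and Grin3a.

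The AMPA receptor subunits moved apart. Gria4, the subunit of fast-closing receptors that is known from parvalbumin interneurons, was at 77.2, 78.7 and 86.5 CPM in the Control TRAP libraries and at 132, 133 and 136 in their total-RNA, without overlap. Its log2 fold change was -0.74 (SE 0.0867, adjusted p = 2.44e-05) in Control, -0.92 in EtOH and -0.90 in EtOH+ABT-888. Gria1 was higher in TRAP by 0.60, 0.56 and 0.75 in the same order, with all 11 mice between 0.37 and 0.81. Gria2 stood at 0.21, 0.32 and 0.49 and did not pass in any treatment (adjusted p = 0.0534, 0.143 and 0.0801). With the mouse as a replicate block in the edgeR fit, Gria2 was called higher in all 3 treatments (adjusted p = 0.0293, 0.014 and 0.0273). Gria3 stood at -0.14, -0.20 and -0.12 and did not pass in either fit.

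All 5 kainate receptor subunits passed in every treatment, 3 higher and 2 lower in TRAP. Grik2 was at 179, 178 and 180.5 CPM in Control TRAP and 85.4, 86.5 and 88.4 in Control total-RNA, a log2 fold change of 1.03 (SE 0.0794, adjusted p = 1.16e-06). Grik5, which joins other kainate subunits and raises their affinity, was higher by 1.30, 1.46 and 1.57 across the treatments, and Grik3 by 0.69, 0.83 and 0.95. Grik1, a subunit abundant in cortical interneurons, was lower by a wide margin: within mice the lowest, median and highest log2 ratios were -4.32, -2.71 and -2.01. Grik4 was lower too, with within-mouse ratios of -2.50, -1.02 and -0.15. Grik1 had few reads in TRAP, from 11 to 70 counts per library, so the size of its ratio is less certain than its sign.

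Among NMDA receptor subunits in Control, Grin1 was higher in TRAP and 4 of the other 5 tested were lower. Grin2c, which outside the cerebellum is known from astrocytes, was at 2.45, 2.49 and 3.53 CPM in Control TRAP and at 25.6, 28.6 and 19.2 in Control total-RNA. Its log2 fold change was -3.11 (SE 0.215, adjusted p = 5.74e-07), the largest decrease of the family in Control. Grin2c had only 23 to 62 counts per Control TRAP library, and its within-mouse ratios over all treatments ran from -4.67 to -1.49. The size of its decrease is therefore less certain than its sign. Grin3a, a subunit that lowers calcium entry and is known from somatostatin interneurons, was lower, at -2.31, -2.99 and -3.03 in Control, EtOH and EtOH+ABT-888. Grin1 was higher by 0.68, 1.01 and 0.89, and Grin2a lower, at -0.43, -0.62 and -0.58. Grin2b stood at -0.17, -0.32 and -0.12 and did not pass, and with the replicate block it was called lower in EtOH (adjusted p = 0.0238). Grin2d passed in Control and EtOH, lower, at -0.74 and -1.15, and missed in EtOH+ABT-888 (adjusted p = 0.152). The exons of Grin1 and Grin2d overlap genes on the opposite strand by 1307 and 643 bases, and the strand setting of the counting was not given in the sources used here, so their counts can include reads of those genes.

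Grid1, the delta receptor subunit, which binds cerebellins and helps to organize synapses, was at 136, 141 and 133 CPM in Control TRAP and 83.3, 86.1 and 83.2 in Control total-RNA. The difference of 0.68 (SE 0.0818, adjusted p = 2.88e-05) was larger than the spread between mice, and it was 0.82 in EtOH and 0.86 in EtOH+ABT-888.

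Of the 6 metabotropic receptors tested, 2 were higher in TRAP and 3 lower in Control. Both group II receptors were lower in TRAP. Grm3, which astrocytes as well as neurons express, was at 90.7, 85.9 and 97.1 CPM in Control TRAP and 218, 229 and 202 in Control total-RNA, a log2 fold change of -1.26 (SE 0.0925, adjusted p = 8.36e-07). Grm2, a presynaptic receptor of cortical excitatory neurons, was lower, at -1.25, -1.64 and -2.31 across the treatments, and the EtOH value was -2.51 without TRAP mouse 9. Of the group III receptors, Grm4 was higher in TRAP by 1.85, 1.98 and 2.31, with within-mouse ratios of 1.17, 2.07 and 2.45 (lowest, median and highest), and Grm8 was lower, at -0.86, -1.08 and -1.06. Grm7 stood at 0.22, 0.56 and 0.68 and did not pass, whereas with the replicate block it was called higher in all 3 treatments (adjusted p = 0.0318, 0.00189 and 0.00123). Grm5, the postsynaptic group I receptor, was higher by 0.87, 0.74 and 1.01.

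Of the 6 TARPs, which deliver AMPA receptors to the synapse and slow their closing, 5 were higher in TRAP and 1 lower in Control. Cacng4 was at 206, 224 and 174 CPM in Control TRAP and 41.9, 53.0 and 48.1 in Control total-RNA, a log2 fold change of 2.06 (SE 0.122, adjusted p = 2.27e-07), and its TRAP to total-RNA difference was 1.67 in EtOH and 1.98 in EtOH+ABT-888. Cacng8, the main hippocampal TARP, was higher by 1.26, 1.20 and 1.43, Cacng3 by 0.88, 1.12 and 0.82, and Cacng2, the founding TARP that is mutated in the stargazer mouse, by 0.67, 0.47 and 0.63. Cacng5 passed in Control and EtOH+ABT-888 and stood at 0.56 in EtOH (adjusted p = 0.122). Cacng7, a TARP of the second type, was the one that was lower, at -0.43, -0.54 and -0.53.

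The cornichons moved in opposite directions. Cnih2 was at 203, 211 and 166 CPM in Control TRAP and 62.2, 64.6 and 57.0 in Control total-RNA, a log2 fold change of 1.64 (SE 0.108, adjusted p = 4.04e-07), whereas Cnih3 was lower, at -0.94, -1.49 and -1.60 in the 3 treatments. Neto1 and Neto2, partners of kainate receptors, stood higher in Control by 1.05 and 1.06. Neto2 missed in EtOH, at 0.66 (adjusted p = 0.0676), and passed there with the replicate block (adjusted p = 0.0213). Of the Shisa proteins, which modulate AMPA receptor desensitization, Shisa7 was higher by 0.43, 0.32 and 0.38, and Shisa6 was lower, at -0.44, -1.44 and -0.97. Shisa9 passed in EtOH and EtOH+ABT-888 only, at 0.48 and 0.63, against 0.18 in Control (adjusted p = 0.0962). The part of the astrocyte, striatal and cortical markers given above in any of these differences was not tested.

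Of the 89 calls between TRAP and total-RNA over the 3 treatments, 76 were made in every fit that left out 1 library, and 13 were lost in at least 1 such fit. In Control, Grin2d was called in 2 of 6 fits (lost without TRAP mouse 4 or 7 or total-RNA mouse 1 or 4), Cacng7 in 3 of 6 (TRAP mouse 7, total-RNA mouse 1 or 4) and Shisa6 in 4 of 6 (TRAP mouse 4, total-RNA mouse 7). In EtOH, Shisa7 was called in 2 of 8 fits (lost without TRAP mouse 2, 5 or 9 or total-RNA mouse 2, 8 or 9) and Shisa9 in 3 of 8 (TRAP mouse 5 or 9, total-RNA mouse 2, 5 or 8). Grik2 was called there in 4 of 8 (TRAP mouse 8, without which it was 0.38, or total-RNA mouse 2, 5 or 8), Grm8 in 5 of 8 (TRAP mouse 5, total-RNA mouse 8 or 9) and Cacng2 in 7 of 8 (total-RNA mouse 2). In EtOH+ABT-888, Shisa7 was called in 2 of 8 (lost without TRAP mouse 3, 10 or 11 or total-RNA mouse 3, 6 or 11), Shisa9 in 2 of 8 (TRAP mouse 3, 6 or 11, total-RNA mouse 6, 10 or 11) and Shisa6 in 3 of 8 (TRAP mouse 3 or 6, total-RNA mouse 3, 10 or 11). Grm3 was called there in 5 of 8 (TRAP mouse 6, total-RNA mouse 3 or 11) and Cacng7 in 7 of 8 (total-RNA mouse 6).

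Ratios of paired subunits do not depend on the scaling of a library, and were compared within the 11 mice by an exact paired permutation test (two-sided, adjusted over the 3 ratios). The log2 ratio of Grin2a to Grin2b, which rises as NMDA receptors mature, averaged -1.16 in TRAP and -0.81 in total-RNA. It was lower in TRAP in 11 of 11 mice, by a mean of -0.35 ± 0.179 (SD, exact permutation p = 0.000977, the smallest this design allows, adjusted p = 0.00293). The ratio of Gria1 to Gria2 was higher in TRAP by 0.30 ± 0.307, in 8 of 11 mice (exact permutation p = 0.0146, adjusted p = 0.0146). The ratio of Grm2 to Grm3 was lower in TRAP by -1.04 ± 0.887, in 9 of 11 mice (exact permutation p = 0.00781, adjusted p = 0.0117). For Grm2 to Grm3 the mean difference was 0.033 in Control. In TRAP its log2 ratio ran from -3.45 to -3.07 in Control, from -5.41 to -3.11 in EtOH and from -4.96 to -4.06 in EtOH+ABT-888. The EtOH and Control ranges overlapped through EtOH mouse 9, in which the TRAP ratio was -3.11 and the difference from total-RNA -0.17, and the EtOH+ABT-888 range lay below Control. Whether the ratios differed between treatments was not tested.

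**Figure D3:**
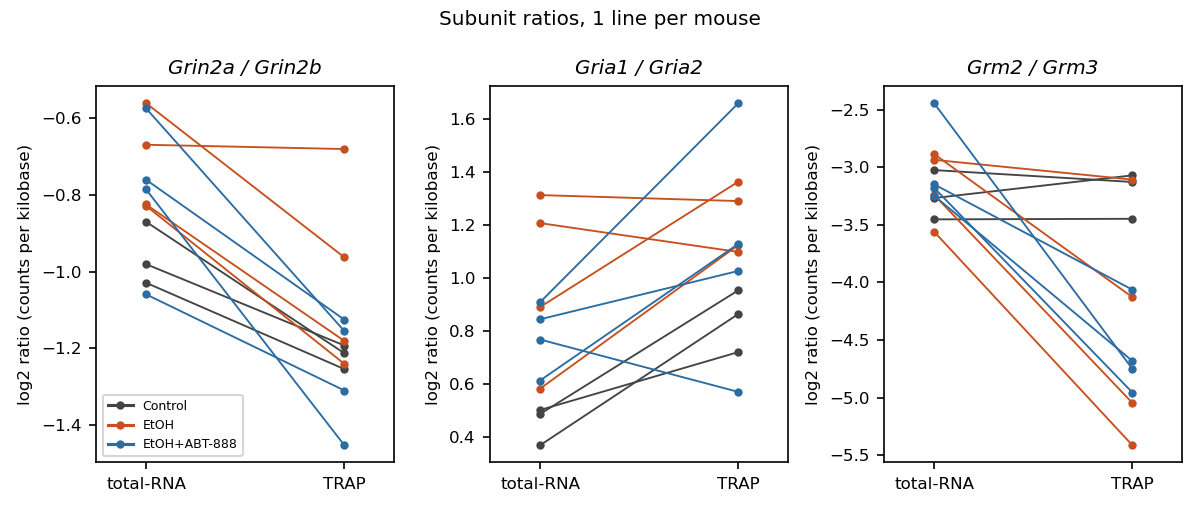
Log2 ratios of counts per kilobase for 3 subunit pairs in total-RNA (left of each panel) and TRAP (right), with 1 line per mouse coloured by treatment. The lines of Grin2a to Grin2b all run down, 8 of 11 lines of Gria1 to Gria2 run up, and the lines of Grm2 to Grm3 run down in 9 of 11 mice, by -0.10 to -2.31, with 2 Control mice at 0.0049 and 0.20.

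The comparison of EtOH with Control asks which of these genes differed after 4 days of ethanol. In TRAP, 3 of 35 passed, all lower in EtOH, and in all genes 5.24% passed, 2.77% higher and 2.47% lower. The median log2 fold change was -0.17 over the 35 genes and 0.017 over all genes. Gria4 was at 77.2, 78.7 and 86.5 CPM in the Control TRAP libraries and at 41.0, 41.7, 51.3 and 56.4 in the EtOH ones, without overlap. The log2 fold change was -0.74 (SE 0.159, adjusted p = 0.0223). Cnih3, the cornichon that was low in TRAP, went from 39.6, 36.7 and 28.8 CPM in Control to 22.2, 17.2, 18.2 and 18.0 in EtOH, again without overlap, at a log2 fold change of -0.87 (SE 0.179, adjusted p = 0.019). Cacng2 was at 144, 148 and 120.0 CPM in Control and 77.5, 93.1, 103 and 91.3 in EtOH, every EtOH library below every Control library, at -0.57 (SE 0.151, adjusted p = 0.0494). The exons of Cacng2 overlap A730060N03Rik on the opposite strand by 323 bases, so its counts can include reads of that gene. These calls rest on few Control libraries: leaving out 1 library at a time, Gria4 was called in 3 of 7 fits, Cnih3 in 5 of 7 and Cacng2 in 2 of 7. Without Control mouse 1 or 4 none of the 3 was called, Gria4 and Cacng2 were lost without Control mouse 7 or EtOH mouse 5, and Cacng2 without EtOH mouse 2.

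In total-RNA, 10 of 35 genes passed between EtOH and Control, 4 higher and 6 lower, and in all genes 17.6% passed, 9.04% higher and 8.6% lower. The median log2 fold change was -0.14 over the 35 genes and 0.0011 over all genes. No NMDA, kainate or delta receptor subunit was among the 10, and the smallest p in those classes was that of Grin2c, at -0.36 (SE 0.165, adjusted p = 0.148). The 10 came from the metabotropic receptors, the AMPA receptor subunits, the TARPs and the Shisa proteins.

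The group II metabotropic receptors were both lower in total-RNA of EtOH mice. Grm3 (ENSMUSG00000003974.6, chr5:9485541-9725170, minus strand) had the smallest p of the family. Its level was 218, 229 and 202 CPM in the Control total-RNA libraries and 105, 113, 125 and 123 in the EtOH ones, so that the highest EtOH library lay far below the lowest Control library. The log2 fold change was -0.89 (SE 0.101, adjusted p = 0.000322). In TRAP, Grm3 stood at 90.7, 85.9 and 97.1 CPM in Control and 56.3, 71.7, 74.5 and 87.3 in EtOH, and the groups overlapped (log2 fold change -0.31 (SE 0.167, adjusted p = 0.283)). Leaving out 1 library, the TRAP value of Grm3 ran from -0.42 to -0.20 and was called in 0 of 7 fits. Grm2 (ENSMUSG00000023192.12, chr9:106643095-106656082, minus strand) was at 43.0, 38.1 and 29.6 CPM in Control total-RNA and 22.8, 19.3, 17.1 and 25.7 in EtOH total-RNA, without overlap, at -0.80 (SE 0.161, adjusted p = 0.00652). In TRAP it was at 16.6, 16.4 and 14.3 CPM in Control and 5.17, 3.48, 2.80 and 16.3 in EtOH: 3 EtOH libraries lay far below Control and 1 inside the Control range, and the log2 fold change of -1.18 (SE 0.483, adjusted p = 0.169) did not pass. Leaving out 1 library, this value ran from -2.05 to -0.92 and was called in 1 of 7 fits (edgeR quasi-likelihood test, lowest adjusted p = 0.002). The exons of Grm2 overlap Gm28111 on the opposite strand by 470 bases, so its counts can include reads of that gene. Grm8, a presynaptic group III receptor, was lower in total-RNA, at -0.54 (adjusted p = 0.0476).

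Gria4 (ENSMUSG00000025892.16, chr9:4417896-4796234, minus strand) was the one gene called in both TRAP and total-RNA of EtOH mice. Its total-RNA level was 132, 133 and 136 CPM in Control and 72.4, 88.9, 94.3 and 101 in EtOH, without overlap, at a log2 fold change of -0.58 (SE 0.117, adjusted p = 0.0061). Gria1 moved the other way in total-RNA, at 0.30 (adjusted p = 0.0354). In TRAP, Gria1 was 0.28 and did not pass (adjusted p = 0.238).

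Among the TARPs, Cacng3 was lower and Cacng5 higher in total-RNA of EtOH mice. Cacng3 (ENSMUSG00000066189.9, chr7:122670492-122769393, plus strand) was at 116, 97.9 and 97.0 CPM in Control and 57.8, 48.4, 68.7 and 63.6 in EtOH, without overlap, at -0.80 (SE 0.128, adjusted p = 0.00197). Cacng5 (ENSMUSG00000040373.12, chr11:107874605-107915055, minus strand), a TARP of the second type expressed at a low level, was at 8.48, 9.22 and 10.1 CPM in Control and 17.9, 15.1, 12.9 and 15.7 in EtOH, again without overlap, at 0.73 (SE 0.153, adjusted p = 0.00726). Of the Shisa proteins, Shisa6 had the smallest p, at 22.6, 23.3 and 25.2 CPM in Control and 26.9, 37.2, 39.7 and 33.7 in EtOH. All 4 EtOH libraries were above the Control libraries, and the log2 fold change was 0.54 (SE 0.142, adjusted p = 0.0225). Shisa7 was higher, at 0.35, and Shisa9 lower, at -0.42. Grm3, Gria4, Cacng3, Grm2 and Cacng5 were called in all 7 fits that left out 1 library, whereas Gria1, Grm8, Shisa6, Shisa7 and Shisa9 were called in 1 to 4 of the 7 and in none that left out a Control library. Of these, Gria1, Grm8, Shisa6 and Shisa7 were also lost without EtOH mouse 5, Grm8 and Shisa7 without mouse 8, and Grm8 without mouse 2. With 1 fit over all 22 libraries, in which TRAP and total-RNA share an estimate of the spread, 3 of the 10 (Grm3, Gria4 and Cacng3) were called, against 1.07% of all genes.

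Some markers of other cells also differed between EtOH and Control. Of 8 microglia markers, 5 were lower in EtOH total-RNA, and their summed level was 278 to 292 CPM in Control, 117 to 176 in EtOH and 101 to 224 in EtOH+ABT-888. The cortical excitatory marker Neurod6 was lower in EtOH total-RNA, at a log2 fold change of -0.99, and in EtOH TRAP, at -1.68. Over the 6 excitatory markers in TRAP, 5 had log2 fold changes below 0 in EtOH and 5 in EtOH+ABT-888. The medians of the 6 were -1.005 and -1.11, against 0.017 and 0.024 over all genes. Of the 6, 1 and 2 were called, against 5.24% and 0.476% of all genes. In total-RNA 5 of 6 were below 0 in EtOH, with a median of -0.36. The microglia marker P2ry12 and the striatal marker Drd2 were the other 2 markers called in EtOH TRAP, both lower, at -3.46 and -0.56. The 8 microglia markers together summed to only 15.4 to 31.2 CPM in Control TRAP and 5.71 to 47.2 in EtOH TRAP. The size of the P2ry12 value is therefore uncertain. The summed level of the 6 excitatory markers, most of which is Camk2a, was 2997 to 3665 CPM in Control and 3319 to 3787 in EtOH total-RNA. In TRAP that sum did not fall with the medians. It was 2361 to 2617 CPM in Control, 2483 to 3211 in EtOH and 2189 to 3193 in EtOH+ABT-888. The striatal markers Ppp1r1b and Tac1 were higher in EtOH total-RNA, at 0.67 and 0.66, and the summed level of that list was 1179 to 1417 CPM in Control and 1321 to 1979 in EtOH. The astrocyte list had 3 of 8 called, 2 higher and 1 lower, the endothelial list 3 of 8, all lower, the interneuron list 1 of 8 and the oligodendrocyte list 1 of 8, both higher. Over all genes 17.6% passed in EtOH total-RNA, and 1 of 8 is not above that share. The part of these markers in the differences of Grm2, Grm3, Gria4, Cacng3 and the others was not tested.

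**Figure D4:**
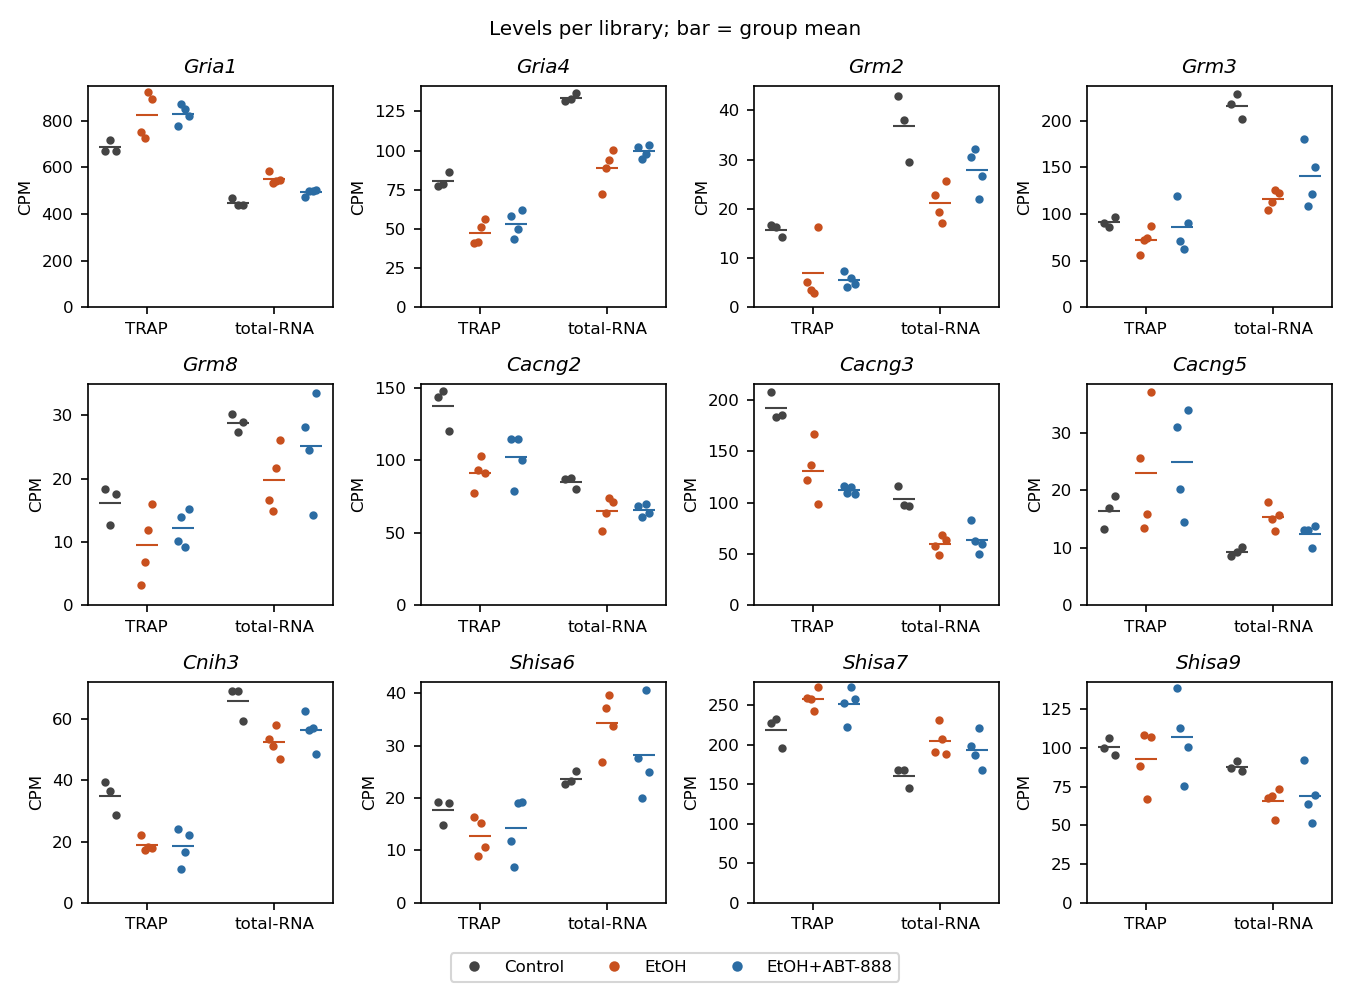
Level in CPM (axes from 0) of the 12 genes called in any comparison with Control, with 1 point per library and a bar at the group mean, for Control, EtOH and EtOH+ABT-888 in TRAP (left) and total-RNA (right). Grm3, Gria4 and Cacng3 show the clearest separation of the EtOH libraries from Control in total-RNA, and Grm2 in TRAP has 1 EtOH library at the Control level.

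EtOH+ABT-888 mice were compared with Control to see which differences were present when the inhibitor was given on the last day. In TRAP, 2 of 35 genes passed, both lower, and in all genes 0.476% passed, 0.185% higher and 0.291% lower. Grm2 was at 16.6, 16.4 and 14.3 CPM in Control TRAP and 7.46, 4.20, 6.01 and 4.67 in EtOH+ABT-888 TRAP, without overlap, a log2 fold change of -1.48 (SE 0.269, adjusted p = 0.0355). Cacng3 was at 208, 183 and 186 CPM in Control and 116, 109.6, 115 and 108 in EtOH+ABT-888, without overlap, at -0.76 (SE 0.141, adjusted p = 0.0374). Both were called in 2 of 7 fits that left out 1 library, and were lost without any one of the 3 Control libraries and without EtOH+ABT-888 mouse 6 or 11. Neurod6 was lower in the same comparison, at -1.73, and its part was not tested. In total-RNA no gene of the 35 passed, against 0.263% of all genes, with 10 of 35 at an unadjusted p under 0.05 in edgeR, where 15.9% of all genes were. DESeq2 called 4 of 35, against 4.41% of all genes, and edgeR's exact test 3, against 3.87%. The smallest p-values were those of Gria4, at -0.42 (SE 0.0924, adjusted p = 0.0824), Cacng3, at -0.70 (SE 0.162, adjusted p = 0.0968), and Grm3, at -0.62 (SE 0.158, adjusted p = 0.116), which did not pass. Neurod6 was lower there too, at -0.80.

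**Figure D5:**
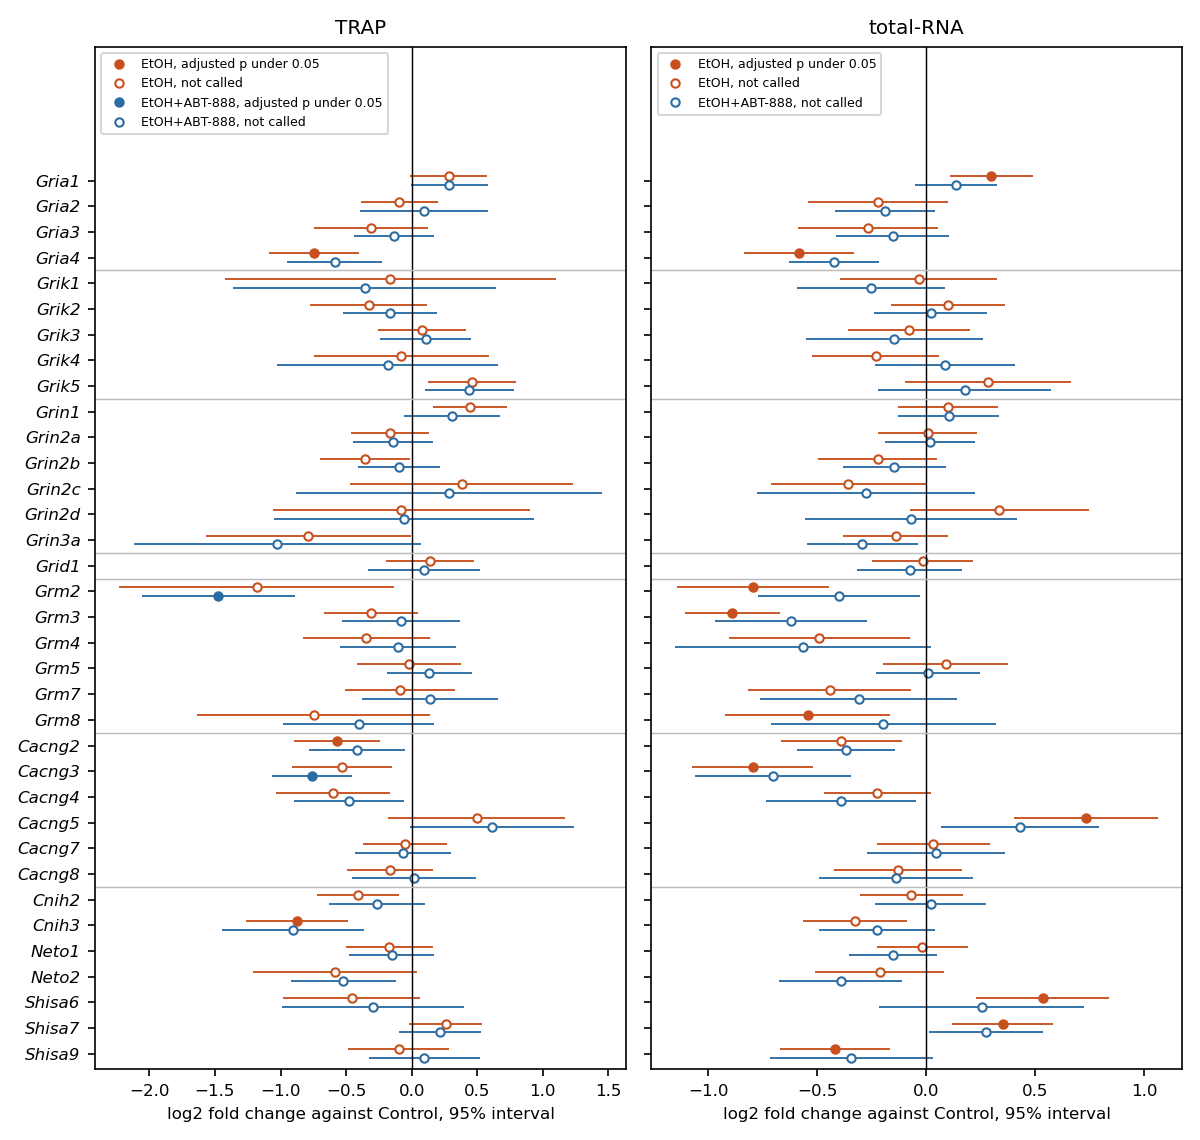
Log2 fold change against Control with its 95% interval for the 35 genes, for EtOH (orange) and EtOH+ABT-888 (blue), in TRAP (left) and total-RNA (right). Filled points passed at an adjusted p under 0.05: 3 and 2 genes in TRAP, and 10 and 0 in total-RNA.

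The effects of EtOH and of EtOH+ABT-888 share their Control libraries, so their values are set side by side and not correlated. For the 10 genes called in EtOH total-RNA, the log2 fold changes in EtOH+ABT-888 total-RNA ran from -0.70 to 0.43. Grm3 had -0.89 in EtOH and -0.62 in EtOH+ABT-888, Cacng3 -0.80 and -0.70, Grm2 -0.80 and -0.40, and Cacng5 0.73 and 0.43.

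The direct comparison of EtOH+ABT-888 with EtOH called none of the 35 genes in TRAP or in total-RNA, against 0.0% and 0.0% of all genes (edgeR). Without adjustment, 0 of 35 in TRAP and 2 in total-RNA were under 0.05, against 0.966% and 1.91% of all genes. In total-RNA, Grm2 stood at 0.39 (95% interval 0.030 to 0.76) and Grik4 at 0.32 (0.0040 to 0.63). DESeq2 called 0 and 0 of the 35, and edgeR's exact test 0 and 0. The 95% intervals bound what could have been missed. In total-RNA all 35 intervals lay within 1 log2 unit of 0, with a median half-width of 0.31, and in TRAP 29 of 35 did, with a median half-width of 0.46. For Grm3 in total-RNA the interval ran from -0.060 to 0.60, beside an EtOH difference from Control of -0.89 (95% interval -1.11 to -0.67). For Gria4 in TRAP it ran from -0.23 to 0.55, beside -0.74 (-1.09 to -0.40). Both direct intervals include 0, and neither is adjusted for the number of genes. The direct comparison and that of EtOH with Control share the EtOH libraries, so their bounds are set side by side and were not tested against each other.

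The interaction asks whether the change with treatment differed between TRAP and total-RNA. None of the 35 genes passed for EtOH, against 0.0213% of all genes, and none for EtOH+ABT-888, against 0.0% (edgeR, with DESeq2 calling 0 and 0). At an unadjusted p under 0.05, where 4.87% and 3.38% of all genes were for EtOH and EtOH+ABT-888, there were 3 for EtOH, namely Shisa6, at -1.005, Cnih3, at -0.56, and Grm3, at 0.56. For EtOH+ABT-888 there was 1, Cnih3, at -0.68, and Grm2 stood at -1.08 and Grm3 at 0.53. The EtOH effect on Cnih3 passed for TRAP alone and that on Grm3 for total-RNA alone, and for neither gene did the test of that difference pass after adjustment.

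Other genes of the glutamate synapse give the setting of the receptors. Of 47 such genes, 40 passed between TRAP and total-RNA in Control, 19 higher and 21 lower, and in all genes 59.9% passed. Of 8 genes of glutamate transport and metabolism, 7 were lower in TRAP and 1 higher. The smallest p-values were those of Glul, the glutamine synthetase of astrocytes, at -2.83, and of the glial transporter Slc1a3, at -3.54. Slc17a8, at -3.23, and Slc1a2, at -2.96, also fell further than Glul. Of 18 postsynaptic scaffold genes 8 were higher and 6 lower, and of 21 genes of receptor biogenesis and synaptic organization 10 were higher and 8 lower, among them the adhesion proteins Lrrtm1, at 0.91, and Lrrtm3, at 1.03. With EtOH, 8 of the 47 passed in TRAP, 2 higher and 6 lower, against 5.24% of all genes. The postsynaptic adhesion protein Lrrtm4, at 0.71, and the scaffold Shank2, at 0.83, were the 2 higher. The lower ones were led, by p-value, by the scaffold Shank1, at -0.85, and the cerebellin Cbln2, at -1.64. Leaving out 1 library, Shank1 was called in 5 of 7 fits (lost without Control mouse 1 or 4), Shank2 in 3 of 7 (Control mouse 1, 4 or 7 or EtOH mouse 5), Lrrtm4 in 2 of 7 (Control mouse 1, 4 or 7 or EtOH mouse 5 or 8) and Cbln2 in 2 of 7 (Control mouse 1, 4 or 7 or EtOH mouse 2 or 8). In EtOH total-RNA 9 of the 47 passed, 2 higher and 7 lower, a share near the 17.6% of all genes. Nptx1, a pentraxin that gathers AMPA receptors, was higher by 0.38 and Lrrtm4 by 0.37. The lower ones were led, by p-value, by the AMPA receptor partner Olfm2, at -0.78, and Cbln2, at -0.75. Olfm2 and Cbln2 were called in 7 of 7 fits that left out 1 library, and Nptx1 and Lrrtm4 in 4 of 7, in none that left out a Control library. In EtOH+ABT-888, Nptx2, an activity-regulated pentraxin, fell in TRAP, at -1.13, and so did Olfm2, at -1.13, against 0.476% of all genes. Both calls were lost in 5 of 7 fits, those without any one of the 3 Control libraries or without EtOH+ABT-888 mouse 6 or 11. None of the 47 passed in EtOH+ABT-888 total-RNA, against 0.263% of all genes (edgeR, 11 at an unadjusted p under 0.05, where 15.9% of all genes were).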

How the data were processed

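RNA was measured in 22 libraries of 11 mice. Per the labels and the methods of the study, libraries were made from rRNA-depleted RNA with the CORALL kit, sequenced as paired reads of 50 bp and aligned to mm10 with STAR, and the deposited counts per gene were made by the authors with featureCounts. Whether strand was used in counting was not given in the sources used here. Besides the overlaps given above, the exons of Neto1 overlap AC113599.1 on the opposite strand by 219 bases. Those of Grin2b, Grin2c, Grm7, Cnih2 and Neto2 overlap opposite-strand genes by at most 143 bases with any single gene. The deposited values are whole-number counts without normalization, 1 column per library, and all columns were used (0 left out).

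Genes with at least 500 counts over the 22 libraries and detected in at least 3 were kept (14072 of 39056). Each comparison was fitted on its own 2 groups with edgeR 4.0.16 in R 4.3.3 (TMM scaling, quasi-likelihood test, Benjamini-Hochberg over all tested genes, threshold 0.05), and the interactions on all 22 libraries. Standard errors are the log2 fold change over the square root of F. RPKM used merged exon lengths of GENCODE release 21, which names 38872 of the 39056 genes, and within-mouse log2 ratios used a prior count of 1. Promoters were matched by symbol to RefSeq (GRCm38.p6). Alternatives were RLE size factors, other filters, DESeq2 1.42.0, edgeR's exact test, 1 fit over all libraries, a replicate block, and leaving out each library. The method was tested on simulated data.

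TRAP and total-RNA libraries of a mouse carry the same animal number in the labels and come from 1 homogenate, so they are paired. Their deviations from the group means correlated at 0.102 to 0.622 across genes in the 11 pairs. Libraries of a group correlated at 0.920 to 0.992 and differed by more than sampling noise in all 30 pairs. Mice are separate animals, and the TRAP depth, down to 6570957 counts, limits the genes with few reads.

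The genes, the other lists and the tests were chosen with earlier results of these data known. Values are given per library for genes that passed, except that where more than 8 passed, full statistics are given for the gene with the smallest p in each role and for those that passed in more than 1 treatment comparison. Where none passed, the 3 with the smallest p are given, and of other synapse genes the 2 with the smallest p in each direction. Genes added beyond this rule were chosen after their values were seen. The motifs and the printed promoters were chosen after values were seen. Of the listed markers, 1 enters the counts of its list and is not reported on its own here.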

Additional observations from a re-analysis of the deposited data

Results flagged for a closer look

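In each group of 4 mice, the library farthest from the other 3 was compared with the range of the group, for each of the 35 genes. Of 140 such groups 6 had a gap above Dixon's 95% critical value for groups of 4, and chance alone gives about 1 in 20 groups. Gria1 in EtOH+ABT-888 total-RNA was 472 CPM in mouse 3, below the other 3 at 497 to 501. Grin2b in the same group was 1953 CPM in mouse 3, above the others at 1552 to 1585. Cacng8 in EtOH+ABT-888 TRAP was 81.8 CPM in mouse 3, above 45.1 to 50.8, so 3 of the 6 libraries came from that mouse. Grin2b in EtOH+ABT-888 TRAP was 1270.5 CPM in mouse 11, below 1603 to 1669. Grin1 in EtOH TRAP was 1010.5 CPM in mouse 5, below 1253 to 1279. Grm7 in EtOH total-RNA was 72.7 CPM in mouse 9, above 41.7 to 44.6. None of these genes was called in a comparison with Control other than Gria1, whose call was in EtOH total-RNA, a group without such a library for that gene.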

How the results depend on the processing

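The number of calls between TRAP and total-RNA ranged across all alternatives from 25 to 33 of 35 genes, and leaving out 1 library gave 28 to 30 in Control, 25 to 30 in EtOH and 26 to 31 in EtOH+ABT-888, with the genes that were lost named above. With the replicate block (mouse) 32, 33 and 32 were called, and in the interactions 0 and 0, and the only calls it changed were those named above for Gria2, Grm7, Grin2b and Neto2. In EtOH TRAP against Control, 7 genes were called with no filter on low counts, 5 by DESeq2, 5 by the exact test, and 0 to 5 without 1 library. In EtOH+ABT-888 TRAP, 4 were called by DESeq2, 4 by the single fit over all 22 libraries, and 0 to 2 without 1 library. In EtOH total-RNA, 3 were called by the single fit, and 5 to 14 without 1 library (14 without EtOH mouse 9). In EtOH+ABT-888 total-RNA, 2 were called with no filter, 4 by DESeq2, 3 by the exact test, and 0 to 5 without 1 library (5 without mouse 3). The direct comparisons and the interactions gave 0 under every alternative. The counts over all genes moved further: EtOH TRAP 737 (5.24% of those tested) against 1472 with no filter (6.13% of 24017), 1523 by DESeq2, 1372 by the exact test and 1191 by the single fit, EtOH+ABT-888 TRAP 67 (0.476%) against 454 (1.91% of 23800), 420, 318 and 403, EtOH total-RNA 2482 against 151 by the single fit, and EtOH+ABT-888 total-RNA 37 (0.263%) against 544 with no filter (1.99% of 27374), 621 by DESeq2, 544 by the exact test and 70 by filterByExpr (0.419% of 16719). Without 1 library they ran in EtOH TRAP from 84 (without Control mouse 4) to 1550 (EtOH mouse 9), in EtOH+ABT-888 TRAP from 0 (any Control mouse, or mouse 6 or 11) to 373 (mouse 3), in EtOH total-RNA from 878 (Control mouse 4) to 3616 (EtOH mouse 9), and in EtOH+ABT-888 total-RNA from 0 (any Control mouse, or mouse 6 or 11) to 870 (mouse 3), with the genes tested unchanged at 14072, so the shares of all genes printed beside the treatment results move with them. The log2 ratio of Grm2 to Grm3, TRAP minus total-RNA, turned to 0.033 within Control, and its mean without 1 mouse stayed between -1.16 and -0.91, that of Grin2a to Grin2b between -0.38 and -0.32 and that of Gria1 to Gria2 between 0.26 and 0.35, all still past the threshold. Over the alternatives for 119 single-gene values (each call, and the 3 smallest p-values of a comparison without calls), 1594 kept direction and call, 107 lost the call, 12 gained it and 0 changed sign. Over all tested genes of the family and all comparisons, 184 of 5705 values changed sign, 0 of them for a called gene. The cause of these differences was not tested. Genes such as Grik1 and Grm2 had few TRAP reads, so their values are less certain, and the part of depth in these differences was not tested.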
